A study of Ovis aries with 24 samples.

Results

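HOXA4, HOXA5, HOXA7, SNAI2 and TFAP2A are patterning and neural crest transcription factors, described here in sheep ductus arteriosus and ascending aorta. The ductus is a fetal shunt between pulmonary artery and aorta that closes in the newborn. Members were all probes whose gene name or description on the array names one of the 5 genes. That gave 5 of the 879 genes named on the array, with 10 of its 15008 probes, 2 for each gene, and all 10 were among the 13997 probes tested. The TFAP2A probes carry the older name AP2 on the array and were matched through their RefSeq accession.

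Total RNA was measured on 24 single-colour arrays, 1 sample per array, in 6 groups of 4 arrays. The groups were ductus and aorta of preterm fetuses at 97 days of gestation, of near-term fetuses at 136 days, and of newborn lambs 12 hours after birth. The sample titles give rounder fetal ages than the source labels, whose ages are used here. The animals carried no stated genetic change or treatment, 4 animals were used per group, and each sample was a whole-tissue segment of the vessel. In such bulk samples fewer cells of a type and less RNA per cell cannot be told apart. The 8 arrays of a stage shared a slide of their own, so stage and slide cannot be told apart. Ductus samples lay in the first column of each slide and aorta samples in the second, so vessel and column cannot be told apart either.

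HOX genes lie in clusters, and the order of the genes along the chromosome matches the order of their expression domains from head to tail in the embryo. HOXA4 and HOXA5 have domains that begin nearer the head than that of HOXA7. In the RefSeq names of the sheep assembly, 11 HOXA genes share 1 chromosome, with HOXA4 next to HOXA5 and HOXA7 on the tail side of both. SNAI2 encodes a zinc finger repressor that lets neural crest cells leave the neural tube and that represses cadherin genes. TFAP2A encodes the factor AP-2 alpha, which takes part in the specification of the neural crest. In birds and mice the cardiac neural crest supplies smooth muscle to the arch arteries, among them the ductus and the proximal aorta. The comparison of the vessels asks whether these positional and crest regulators differ between vessels that lie side by side, and the comparison of stages asks whether they change toward and after birth.

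Signals are given as log2 of the processed spot intensity relative to the 75th percentile of the same array, so that 0 is the brightness of a probe at that percentile. A gene's brighter probe is described first and its other probe beside it. Levels of different genes are not compared, since probes differ in brightness for the same amount of RNA. Differences are ductus minus aorta or later minus earlier stage, with the standard error of a limma fit over all 24 arrays. They count as called when the Benjamini-Hochberg adjusted p over all tested probes was under 0.05. The labels give separate animals within a group but do not say whether ductus and aorta with 1 replicate number came from 1 animal.

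Averaged over the 3 stages, HOXA4, HOXA5, SNAI2 and TFAP2A were higher in the ductus and HOXA7 was lower there, TFAP2A on its brighter probe only. All 5 genes passed the limma test in that mean, among 14.9% of all tested probes called (6.08% higher and 8.82% lower in the ductus). The members were chosen with earlier results of these data known, so their count is no measure of enrichment. The brighter TFAP2A probe reached the number of arrays above background needed for testing only through the ductus. With calls at that rate, the count of members is read together with the values on each array. By stage, the calls were HOXA7 in preterm vessels, SNAI2 near term, and HOXA4, HOXA5, HOXA7 and SNAI2 in newborns. The shares of all tested probes called were 0.707% in preterm vessels, 1.15% near term and 10.1% in newborns. The median difference over all tested probes was −0.20, −0.12 and −0.28 on the log2 scale at the 3 stages and −0.18 in their mean. The rises of HOXA4, HOXA5 and SNAI2 thus ran against the general shift, while the fall of HOXA7 was far larger than it.

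**Figure D1:**
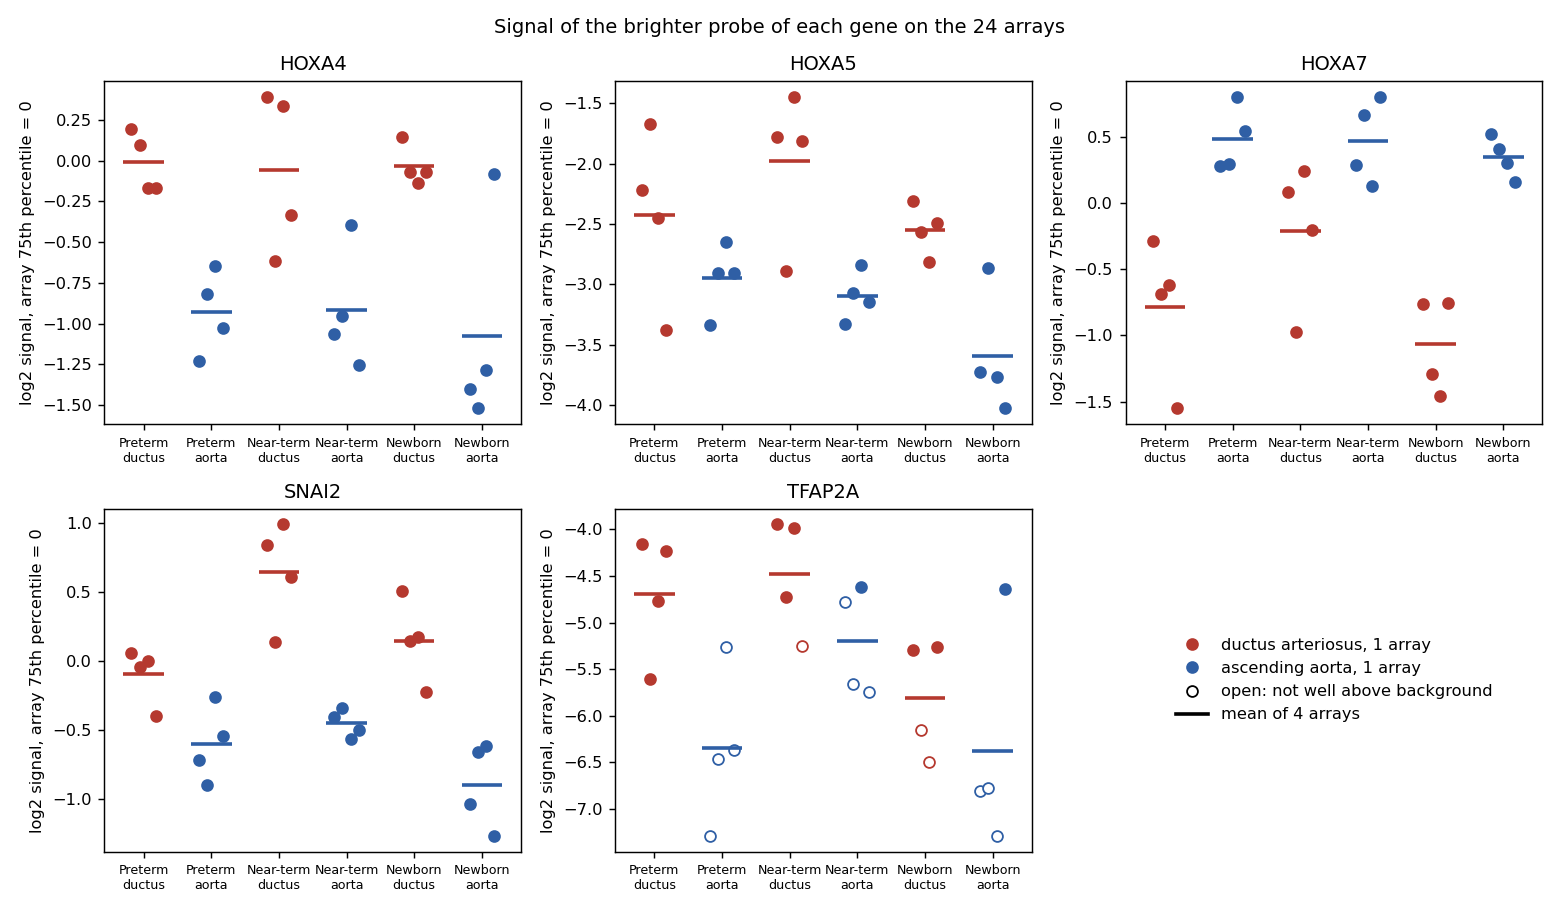
Log2 signal relative to the array's 75th percentile (y axis) of the brighter probe of each gene on 24 arrays, with ductus in red left of aorta in blue at each stage, 4 arrays a group, bars at group means and open points for spots not well above background. HOXA4, HOXA5 and SNAI2 sit higher in ductus and HOXA7 sits lower at all 3 stages, and most TFAP2A points of the aorta are open.

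HOXA4 was the steadiest of the set across development. Preterm ductus arrays read 0.19, 0.10, −0.16 and −0.17, against −1.23, −0.82, −0.64 and −1.02 in preterm aorta. Near-term ductus arrays read 0.39, −0.61, 0.33 and −0.33, against −1.06, −0.95, −0.40 and −1.25 in near-term aorta. Newborn ductus arrays read 0.14, −0.07, −0.14 and −0.07, against −1.40, −1.52, −1.29 and −0.08 in newborn aorta. All preterm ductus arrays lay above all preterm aorta arrays, whereas 1 array of near-term aorta and 1 of newborn aorta reached into the range of their ductus. Such separation of 4 from 4 arrays in either direction was seen for 8.07% of all tested probes in preterm vessels.

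The HOXA4 difference was 0.92 ± 0.28 in preterm vessels (adjusted p = 0.174) and 0.86 ± 0.28 near term (adjusted p = 0.220), neither of them called. In newborns it was 1.04 ± 0.28, a 2.06-fold higher signal in ductus that passed the limma test (adjusted p = 0.0217). The mean over the stages was 0.94 ± 0.16 with an adjusted p of 0.000564, a 1.92-fold higher signal in ductus. The other probe gave 1.01, 1.01 and 1.13 at the 3 stages, none of them called (adjusted p = 0.324, 0.381 and 0.0697), and a mean of 1.05 ± 0.22 (adjusted p = 0.00378). The newborn call did not survive leaving out newborn aorta replicate 1, 2 or 3 or newborn ductus replicate 1, with adjusted p-values of 0.0565 to 0.0654.

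The order of the HOXA4 group means was preterm ductus (−0.010 ± 0.18), newborn ductus (−0.031 ± 0.12), near-term ductus (−0.055 ± 0.50), near-term aorta (−0.92 ± 0.37), preterm aorta (−0.93 ± 0.25) and newborn aorta (−1.07 ± 0.67; SD, n = 4 each). All neighbours in that order overlapped. The 3 ductus means lay within 0.05 log2 units of each other. Between near-term and preterm ductus the change was −0.04 with a 95% interval of −0.63 to 0.54, and between newborn and near-term ductus it was 0.02 with an interval of −0.56 to 0.61.

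Newborn aorta replicate 4 stood apart for HOXA4, at −0.08 on the brighter probe and 0.53 on the other, against −1.97 to −1.34 on the other probe in the other 3 newborn aorta arrays. That array was among those with a spike-in detection limit above 1.5, a measure of array quality in the file headers. Within groups, arrays with a limit above 1.5 read 0.47 ± 0.16 higher for HOXA4 than the others. With the limit as a block the mean HOXA4 vessel difference was 1.10 (adjusted p = 5.24e-05), and on arrays with a low limit it was 1.07 (adjusted p = 0.00209).

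HOXA5, the cluster neighbour of HOXA4 and a gene required for lung and airway development in mice, was also higher in ductus. Preterm ductus arrays read −2.21, −1.67, −2.45 and −3.38, against −3.34, −2.91, −2.65 and −2.91 in preterm aorta. Near-term ductus arrays read −1.78, −2.89, −1.45 and −1.81, against −3.33, −3.07, −2.84 and −3.14 in near-term aorta. Newborn ductus arrays read −2.31, −2.56, −2.82 and −2.50, against −3.73, −2.86, −3.77 and −4.03 in newborn aorta. The vessels overlapped in preterm fetuses, where ductus replicate 4 was the lowest of the 8 arrays. They overlapped near term through ductus replicate 2 alone, and did not overlap in newborns, where 19.8% of all tested probes did not overlap in either direction.

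The HOXA5 difference was 0.52 ± 0.33 in preterm vessels (adjusted p = 0.544), 1.12 ± 0.33 near term (adjusted p = 0.139) and 1.05 ± 0.33 in newborns. The newborn value was a 2.07-fold higher signal in ductus and passed the limma test (adjusted p = 0.0461). The mean of 0.90 ± 0.19 had an adjusted p of 0.00347. The other probe gave larger values of 1.21, 1.24 and 1.49, and it too was called in newborns (adjusted p = 0.0414) and in the mean (1.31 ± 0.26, adjusted p = 0.00212). Near the threshold, the newborn call of the brighter probe was kept only without newborn aorta replicate 2 (1.296, adjusted p = 0.0169). Without any of the other 7 newborn arrays its adjusted p ran from 0.0626 to 0.128. Without near-term ductus replicate 2 the near-term difference was 1.42 and was called (adjusted p = 0.0375). The preterm difference was 0.27 without ductus replicate 2 and 0.84 without ductus replicate 4.

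The group means of HOXA5 came in the order near-term ductus (−1.98 ± 0.63), preterm ductus (−2.43 ± 0.71), newborn ductus (−2.55 ± 0.21), preterm aorta (−2.95 ± 0.28), near-term aorta (−3.10 ± 0.20) and newborn aorta (−3.60 ± 0.51; SD, n = 4 each). Each group overlapped with the next. On the other probe, newborn ductus, the lowest ductus group, did not overlap with near-term aorta, the highest aorta group.

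HOXA7, whose expression domain in embryos begins farther toward the tail, ran the opposite way. Preterm ductus arrays read −0.29, −0.69, −0.62 and −1.55, against 0.28, 0.29, 0.80 and 0.55 in preterm aorta. Near-term ductus arrays read 0.08, −0.98, 0.24 and −0.21, against 0.28, 0.66, 0.13 and 0.80 in near-term aorta. Newborn ductus arrays read −0.76, −1.29, −1.46 and −0.76, against 0.52, 0.41, 0.30 and 0.16 in newborn aorta. The vessels did not overlap in preterm fetuses and newborns, and near term only ductus replicate 3 rose above any aorta array. All 12 aorta arrays read above 0, between 0.13 and 0.80, while the 12 ductus arrays ran from −1.55 to 0.24. On the other probe the vessels overlapped in preterm fetuses and near term. Aorta arrays there ran from −0.22 to 0.84, against −1.79 to 0.19 in ductus.

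The HOXA7 difference was −1.26 ± 0.27 in preterm vessels, a 2.40-fold lower signal in ductus that passed the limma test (adjusted p = 0.0333). Near term it was −0.69 ± 0.27 and was not called (adjusted p = 0.429). In newborns it was −1.41 ± 0.27, a 2.67-fold lower signal in ductus (adjusted p = 0.00257), and in the mean −1.12 ± 0.16 (adjusted p = 8.65e-05). The other probe gave −1.04, −0.53 and −1.39, with the newborn value called (adjusted p = 0.0103) and the preterm value not (adjusted p = 0.182). The preterm call held without preterm ductus replicate 1 (−1.43, adjusted p = 0.0276). It was lost without any of the other 7 preterm arrays, with adjusted p-values of 0.0561 to 0.122. The newborn call was kept without each of the 8 newborn arrays in turn.

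Group means of HOXA7 came in the order preterm aorta (0.48 ± 0.25), near-term aorta (0.47 ± 0.32), newborn aorta (0.35 ± 0.16), near-term ductus (−0.22 ± 0.54), preterm ductus (−0.79 ± 0.54) and newborn ductus (−1.07 ± 0.36; SD, n = 4 each). Neighbours overlapped throughout. The 3 aorta means lay close together, whereas the ductus means spread over 0.85 log2 units.

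**Figure D2:**
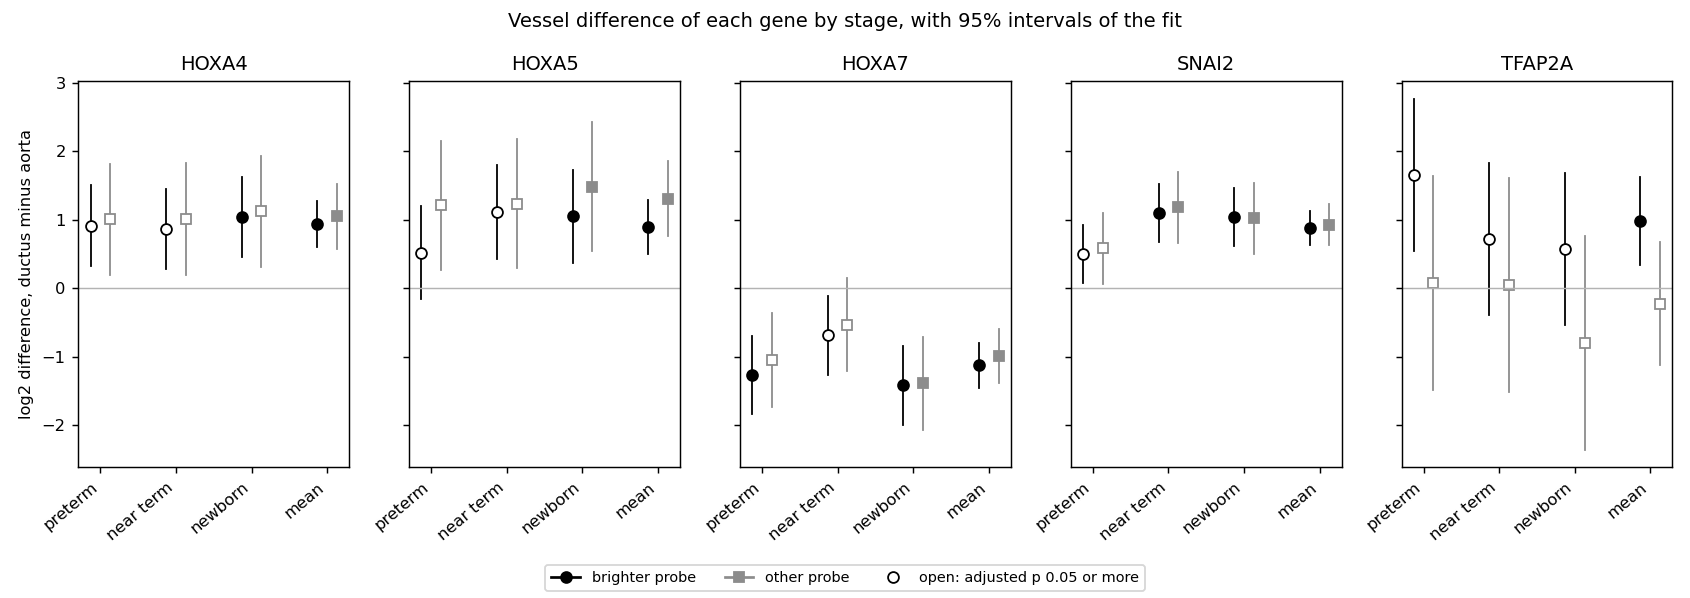
Log2 difference of ductus minus aorta (y axis) at each stage and in their mean, for the brighter probe (black circles) and the other probe (grey squares) of each gene, with 95% intervals of the limma fit and filled symbols for an adjusted p under 0.05. The 2 probes of HOXA4, HOXA5, HOXA7 and SNAI2 lie on the same side of 0 at every stage, and those of TFAP2A do not.

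SNAI2, the crest and mesenchyme repressor, was higher in ductus and had the smallest standard error of the set. Preterm ductus arrays read 0.060, −0.044, 0.0016 and −0.40, against −0.71, −0.90, −0.26 and −0.54 in preterm aorta. Near-term ductus arrays read 0.84, 0.14, 0.99 and 0.61, against −0.41, −0.34, −0.56 and −0.50 in near-term aorta. Newborn ductus arrays read 0.51, 0.14, 0.17 and −0.23, against −1.04, −0.66, −0.62 and −1.27 in newborn aorta. The vessels parted completely near term and in newborns, and in preterm fetuses only aorta replicate 3 reached above ductus replicate 4. Separation of 4 from 4 arrays near term was seen for 6.11% of all tested probes.

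The SNAI2 difference was 0.51 ± 0.20 in preterm vessels (adjusted p = 0.343). It was 1.10 ± 0.20 near term, a 2.14-fold higher signal in ductus (adjusted p = 0.00773), and 1.05 ± 0.20 in newborns, a 2.06-fold higher signal (adjusted p = 0.00265). Both later values passed the limma test, also without any array of the stage in turn. The mean over the stages was 0.88 ± 0.12 (adjusted p = 4.47e-05). The other probe gave 0.58, 1.18 and 1.02, called at the same 2 stages (adjusted p = 0.0191 near term and 0.0121 in newborns). On that probe all 12 ductus arrays, from −0.28 to 0.90, lay above all 12 aorta arrays, from −1.78 to −0.34. Of all tested probes, 0.179% had every ductus array above every aorta array, and 0.922% parted in 1 direction at each of the 3 stages as this probe did. On arrays with a low spike-in limit the SNAI2 difference was not called near term (0.78, adjusted p = 0.224) or in newborns (adjusted p = 0.0509).

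For SNAI2 the group means came in the order near-term ductus (0.65 ± 0.37), newborn ductus (0.15 ± 0.30), preterm ductus (−0.096 ± 0.21), near-term aorta (−0.45 ± 0.10), preterm aorta (−0.60 ± 0.27) and newborn aorta (−0.90 ± 0.31; SD, n = 4 each). Each overlapped with its neighbour on this probe, and on the other probe preterm ductus did not overlap with preterm aorta, which came next.

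TFAP2A, the AP-2 factor of crest specification, gave a dim signal whose vessel difference was not shared by its probes. The brighter probe was well above background on 11 of 24 arrays, and the other on 10. On the brighter probe preterm ductus arrays read −4.16, −5.61, −4.77 and −4.23 and were all well above background. Preterm aorta arrays read −7.29, −6.47, −5.27 and −6.37, and 0 of 4 were well above background. Aorta signals below the lowest well-above-background signal of any probe on their array were raised to that floor. The preterm ductus signal was then 1.67-fold higher than that of the aorta. This value compares means only. It is neither a confidence limit nor a lower bound, since the signal that counts as well above background differs between spots. The measured difference was 1.66 ± 0.53 and was not called (adjusted p = 0.203). On the other probe the preterm difference was 0.077, with 1 of 4 aorta arrays well above background.

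Near-term ductus arrays read −3.95, −4.72, −3.99 and −5.25, with 3 of 4 well above background, against −4.78, −5.66, −4.61 and −5.75 in near-term aorta, with 1 of 4. Newborn ductus arrays read −5.30, −6.16, −6.50 and −5.27, with 2 of 4 well above background, against −6.81, −6.78, −7.29 and −4.64 in newborn aorta, with 1 of 4. The TFAP2A vessels overlapped at all 3 stages. The near-term difference was 0.72 ± 0.53 (adjusted p = 0.934) and the newborn difference 0.58 ± 0.53 (adjusted p = 0.447). The newborn value was 0.27 without newborn aorta replicate 3 and 1.16 without newborn aorta replicate 4, and neither was called.

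The mean TFAP2A difference of 0.98 ± 0.31 on the brighter probe was called (adjusted p = 0.0378). That probe was well above background on 4, 3 and 2 ductus arrays at the 3 stages, against 0, 1 and 1 aorta arrays. A probe was tested when at least 4 arrays were well above background, which this one reached only through the ductus, where it was higher. The call thus sets ductus signal against aorta spots mostly at background. On the other probe the mean was −0.22 ± 0.43 (adjusted p = 0.718), of the opposite sign. Its stage values were 0.077, 0.050 and −0.79, and in newborn ductus 0 of 4 arrays were well above background, so no fold is given there. The call on the brighter probe was lost on leaving out any of 11 arrays. These were preterm aorta replicates 1, 2 and 4, near-term aorta replicates 2 and 4, newborn aorta replicate 3, preterm ductus replicates 3 and 4, near-term ductus replicate 3 and newborn ductus replicates 1 and 4, with adjusted p-values up to 0.0678. Within groups, arrays with a spike-in limit above 1.5 read 0.75 ± 0.33 higher on the brighter TFAP2A probe and 1.88 ± 0.28 higher on the other. The brighter probe was well above background on 6 of 12 arrays with such a limit and on 5 of the 12 others, and the other probe on 9 and on 1.

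The order of the TFAP2A group means was near-term ductus (−4.48 ± 0.63), preterm ductus (−4.69 ± 0.67), near-term aorta (−5.20 ± 0.59), newborn ductus (−5.81 ± 0.62), preterm aorta (−6.35 ± 0.83) and newborn aorta (−6.38 ± 1.19; SD, n = 4 each). All neighbours overlapped. This was the only gene of the set whose brighter probe had the vessels interleaved in that order.

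Across the 24 arrays the 2 probes of a gene followed each other with a Pearson correlation of 0.955 for HOXA4, 0.936 for HOXA7, 0.903 for SNAI2, 0.846 for HOXA5 and 0.489 for TFAP2A. These are descriptions over arrays that share vessel, stage and slide. As a test that needs no model, an exact two-sided permutation of the 8 arrays of a stage was run for each of the 10 probes at the 3 stages, 30 tests in all. The smallest exact p that 4 against 4 arrays allow is 0.0286, and after adjustment over the 30 tests the smallest value was 0.0659. No single probe and stage therefore passed that test once adjusted. The exact p reached 0.0286 for 1 stage on each HOXA4 probe, for 1 and 2 stages on the brighter and other HOXA5 probe, for 2 and 1 on those of HOXA7, for 2 and 3 on those of SNAI2, and for 0 on both TFAP2A probes.

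Between stages none of the 5 genes was called in either vessel, where 0.314% of all tested probes were called between near-term and preterm ductus and 10.8% between newborn and near-term ductus. In aorta the shares were 0.493% and 6.44%. The median change over all tested probes was 0.22 and then −0.31 in ductus, and 0.13 and then −0.24 in aorta. For SNAI2 the change between near-term and preterm ductus was 0.74, with a 95% interval of 0.32 to 1.17 and an adjusted p of 0.134. HOXA7 changed by −0.85 between newborn and near-term ductus, with an interval of −1.42 to −0.28 and an adjusted p of 0.0506, just above the threshold. Its change in aorta over the same step was −0.12, with an interval of −0.69 to 0.45. Without near-term ductus replicate 2, the changes between newborn and near-term ductus were −1.11 for HOXA7 (adjusted p = 0.0124) and −0.67 for SNAI2 (adjusted p = 0.0391), and both were then called. For HOXA5 that change was −0.56 (interval −1.25 to 0.12), and −0.87 without that array.

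**Figure D3:**
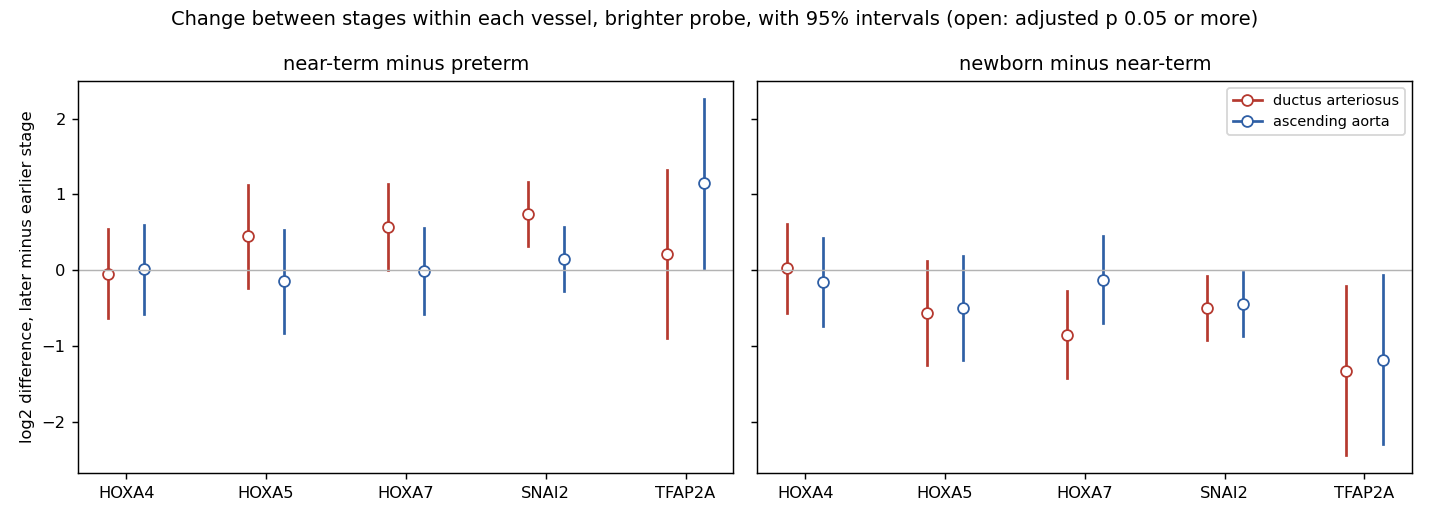
Log2 change between successive stages (y axis, later minus earlier) of the brighter probe of each gene, in ductus (red) and aorta (blue), with 95% intervals of the limma fit. All symbols are open because none of the changes had an adjusted p under 0.05, and those of HOXA4 lie nearest to 0.

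The vessel difference itself was compared between stages as an interaction in the same fit, and none of the 5 genes was called. Of all tested probes 0% were called between near term and preterm, where limma found 224 probes at an unadjusted p under 0.05, then 0.393% between newborn and near term and 0.629% between newborn and preterm. For HOXA4 the vessel difference in newborns exceeded that in preterm fetuses by 0.12, with a 95% interval of −0.70 to 0.95. For HOXA5 this was 0.53 (interval −0.44 to 1.495), for HOXA7 −0.15 (interval −0.96 to 0.66), for SNAI2 0.54 (interval −0.063 to 1.14) and for TFAP2A −1.08 (interval −2.66 to 0.50). The intervals leave room for changes in the vessel difference of more than 0.5 log2 units for each gene. The largest shift for HOXA7 was between newborn and near term, −0.73 with an interval of −1.54 to 0.079.

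The ratio of 2 signals on 1 array does not depend on how arrays are scaled. The ratios to HOXA7 were chosen after the opposite directions had been seen and are descriptions with no test. The log2 ratio of HOXA4 to HOXA7 ran from −0.13 to 1.38 on the 12 ductus arrays, against −2.06 to −0.24 on the 12 aorta arrays. For HOXA5 to HOXA7 the range was −1.93 to −0.98 in ductus, against −4.25 to −2.97 in aorta. For SNAI2 to HOXA7 it was 0.35 to 1.63 in ductus, against −1.56 to −0.69 in aorta. All 12 ductus arrays lay above all 12 aorta arrays for each of the 3 ratios. Of all tested probes 3.39% parted the vessels completely in the same direction when set over HOXA7.

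The difference between vessels in the HOXA4 to HOXA7 log2 ratio was 2.18 in preterm fetuses, 1.55 near term and 2.46 in newborns, or 4.54, 2.92 and 5.49 as a fold. In the HOXA5 to HOXA7 ratio it was 1.79, 1.80 and 2.47, and in the SNAI2 to HOXA7 ratio 1.77, 1.78 and 2.46. Near-term ductus replicate 2, which was the lowest of its group for HOXA4, HOXA5, HOXA7 and SNAI2 alike on the brighter probes, lay with the other ductus arrays in all 3 ratios.

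**Figure D4:**
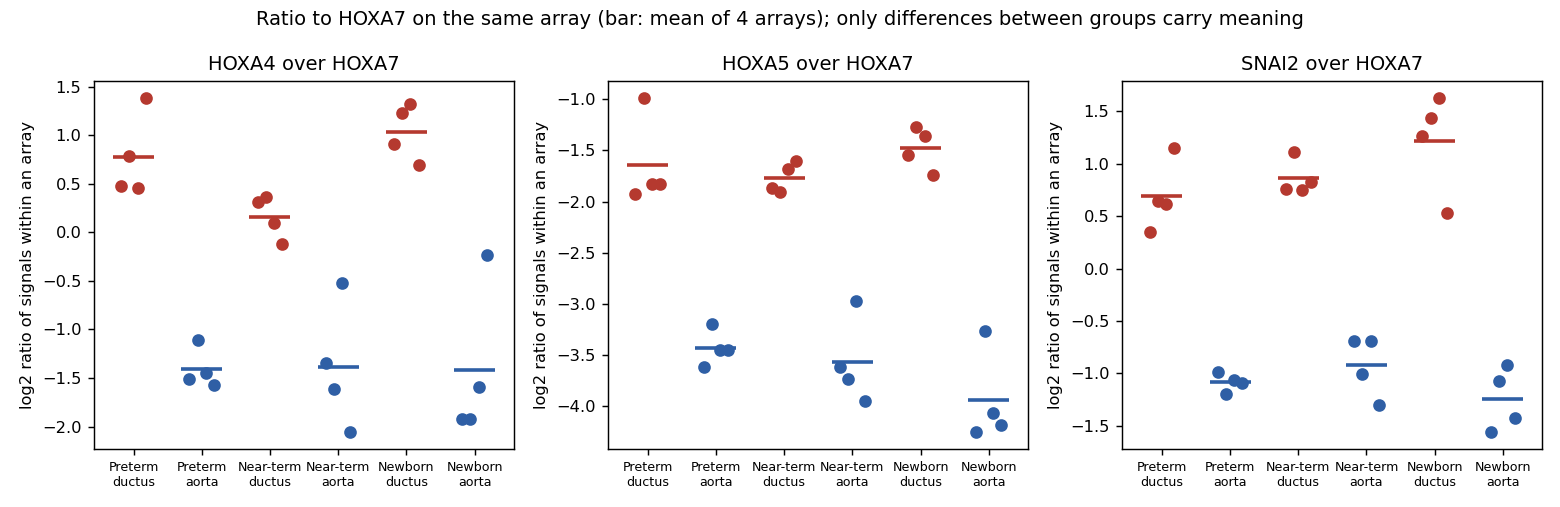
Log2 ratio of HOXA4, HOXA5 and SNAI2 to HOXA7 on the same array (y axis) for 24 arrays, with ductus in red left of aorta in blue at each stage and bars at the mean of 4 arrays. All ductus arrays lie above all aorta arrays in each panel, and the level of a ratio carries no meaning because probes differ in brightness.

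Some pairs of the 5 genes varied together within groups. After the group means were taken out, the correlation over 24 arrays was 0.710 between HOXA5 and HOXA7, 0.647 between HOXA5 and SNAI2, 0.625 between HOXA7 and SNAI2, and 0.744 between HOXA4 and TFAP2A. HOXA4 and HOXA7 had a correlation of 0.226 within groups and −0.580 over all arrays. The other 5 pairs ran from −0.058 to 0.243 within groups. These arrays share slides and scaling, so the values are descriptions. HOXA4 and TFAP2A also both read higher within groups on arrays with a spike-in limit above 1.5, by 0.47 and 0.75. The TFAP2A probe was well above background on 11 of 24 arrays, and the part of array quality in that correlation was not tested.

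The named genes whose signal over the 24 arrays was most like that of each member were ranked by Pearson correlation among 831 other named genes, with the correlation of the 6 group means beside it. For HOXA4 these were IL1A, which encodes the cytokine interleukin-1 alpha (0.900 over arrays, 0.991 over group means), ARG2, a mitochondrial arginase (0.794 and 0.948), and EDN1, which encodes the constrictor endothelin-1 (0.787 and 0.987). For HOXA5 they were SNAI2 (0.849 and 0.954), ARG2 (0.694 and 0.840) and HK1, a hexokinase (0.673 and 0.833). For HOXA7 they were HOXC6 (0.864 and 0.973), IL15, an interleukin (0.779 and 0.952), and HOMER, the array's name (0.774 and 0.971). For SNAI2 they were HOXA5, IL1A (0.713 and 0.893) and VIM (0.697 and 0.911). For TFAP2A they were PLGF, a placental growth factor (0.756 and 0.912), NRG1, the ligand neuregulin-1 (0.720 and 0.954), and HOXA4 (0.702 and 0.681). Each of these genes was called in the mean vessel difference, with the sign of the member it follows, except HK1, whose difference of 1.05 ± 0.37 was not called (adjusted p = 0.0600). Of all tested probes 14.9% were called in that mean. Genes picked for likeness to a member that differs between the vessels largely share its difference through the choice, so these calls are no separate result.

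Of 36 other HOX genes 3 were measured by name, all from the HOXC cluster. The mean vessel difference of 2 of them, HOXC6 and HOXC9, passed the limma test and was lower in ductus, and 0 were called higher. Of all tested probes 14.9% were called in that mean, and 8.82% were called lower in ductus. Only HOXC6 was well above background on all 24 arrays, so it alone is set out by its levels. The median of the 3 was the value of HOXC13, −1.64, against −0.18 over all tested probes, and it rests on spots at background. HOXC6 ran from −3.85 to −0.025 on the 12 ductus arrays, against −0.71 to 0.86 on the 12 aorta arrays, and was well above background on all of them. Its differences were −1.53, −0.59 and −1.72 at the 3 stages, none called, and the mean was −1.28 ± 0.34 (adjusted p = 0.0157), a 2.43-fold lower signal in ductus. On arrays with a low spike-in limit the HOXC6 mean was −1.14 and was not called (adjusted p = 0.240).

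HOXC9 was dim, well above background on 2 of 12 ductus arrays, both near term, and on 8 of 12 aorta arrays. All 10 of these arrays were among the 12 with a spike-in limit above 1.5, against 0 of the 12 others. HOXC9 reached the 4 arrays needed for testing only through the aorta, the vessel where it was higher. Its mean difference was −1.96 ± 0.66 (adjusted p = 0.0494), measured in part against spots at background. That call was lost on leaving out any of 17 of the 24 arrays, with adjusted p-values up to 0.0914. With the spike-in limit as a block the HOXC9 mean was −0.97 (adjusted p = 0.0575), and with normexp background correction −0.46 (adjusted p = 0.315). HOXC13 was well above background on 11 arrays, all with a limit above 1.5, and on 0 of 4 newborn ductus arrays. Its difference of −1.64 was not called (adjusted p = 0.165) and was −0.34 with the limit as a block (adjusted p = 0.636). The part of the detection limit in the HOXC9 and HOXC13 differences was not tested further. HOX genes share a similar homeobox, and whether a probe also binds RNA of a related HOX gene was not tested.

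Of 35 other neural crest transcription factors 2 were measured and 0 called in any vessel comparison. SNAI1, the sister gene of SNAI2, had a mean difference of 0.29 (adjusted p = 0.200), and SNAI3 −0.94 (adjusted p = 0.291), well above background on the 12 arrays with a spike-in limit above 1.5 and on 0 of the others. TFAP2B, the paralogue of TFAP2A whose mutation in people causes Char syndrome with a patent ductus, was not analysed here. Of 30 outflow tract and arch factors 2 were measured and 0 called, ISL1 at −1.01 (adjusted p = 0.269) and HAND1 at −0.73 (adjusted p = 0.196). Their other probes gave −0.55 and −0.13. On the 12 arrays with a spike-in limit above 1.5, ISL1 and HAND1 were well above background on 12 each, and on the 12 others on 4 and 6. Of 9 HOX cofactors of the PBX, MEIS and PKNOX families 0 were measured by name.

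Of 19 genes of retinoic acid supply and reception, the signal that sets HOX domains in the embryo, ALDH1A1 alone was measured. It encodes a retinaldehyde dehydrogenase. ALDH1A1 averaged −0.78 ± 0.31 in preterm ductus, against −1.91 ± 0.29 in preterm aorta, then 0.25 ± 0.21 in near-term ductus, against −0.62 ± 0.61 in near-term aorta (SD, n = 4 each). In newborns it averaged −0.067 ± 0.38 in ductus, against −0.84 ± 0.26 in aorta. The vessel difference was called in preterm fetuses (1.13, adjusted p = 0.0490) and in the mean (0.92 ± 0.15, adjusted p = 0.000380), a 1.90-fold higher signal in ductus. The ALDH1A1 preterm call was lost without any of the 8 preterm arrays, with adjusted p-values up to 0.173, while the call in the mean was kept without any of the 24. ALDH1A1 rose by 1.29 between preterm and near-term aorta (adjusted p = 0.0279). In ductus it rose by 1.03 over that step, which was not called (adjusted p = 0.103). The vessel difference changed by −0.27 between these stages and that change was not called.

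Of 12 genes that change with SNAI2 in mesenchymal cells 5 were measured. In the mean of the stages 1 was called higher and 0 lower in ductus, with a median of 0.0022. Of all tested probes 14.9% were called in that mean, so this count is no result about the list. The called gene was VIM, which encodes the mesenchymal filament vimentin, at 0.45 ± 0.11 (adjusted p = 0.00759), a 1.37-fold higher signal in ductus. VIM ran from 6.91 to 7.48 in ductus, against 6.17 to 7.51 in aorta, and its ranges overlapped. On arrays with a low spike-in limit the VIM difference was 0.24 (adjusted p = 0.334). MMP2, a matrix protease, differed by 0.0022 (adjusted p = 0.987), and the junction genes CLDN1 and OCLN and the integrin ITGA5 were not called. OCLN was well above background on the 12 arrays with a spike-in limit above 1.5 and on 0 of the 12 others. For ITGA5 the counts were 12 and 5, and for CLDN1 8 and 8.

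**Figure D5:**
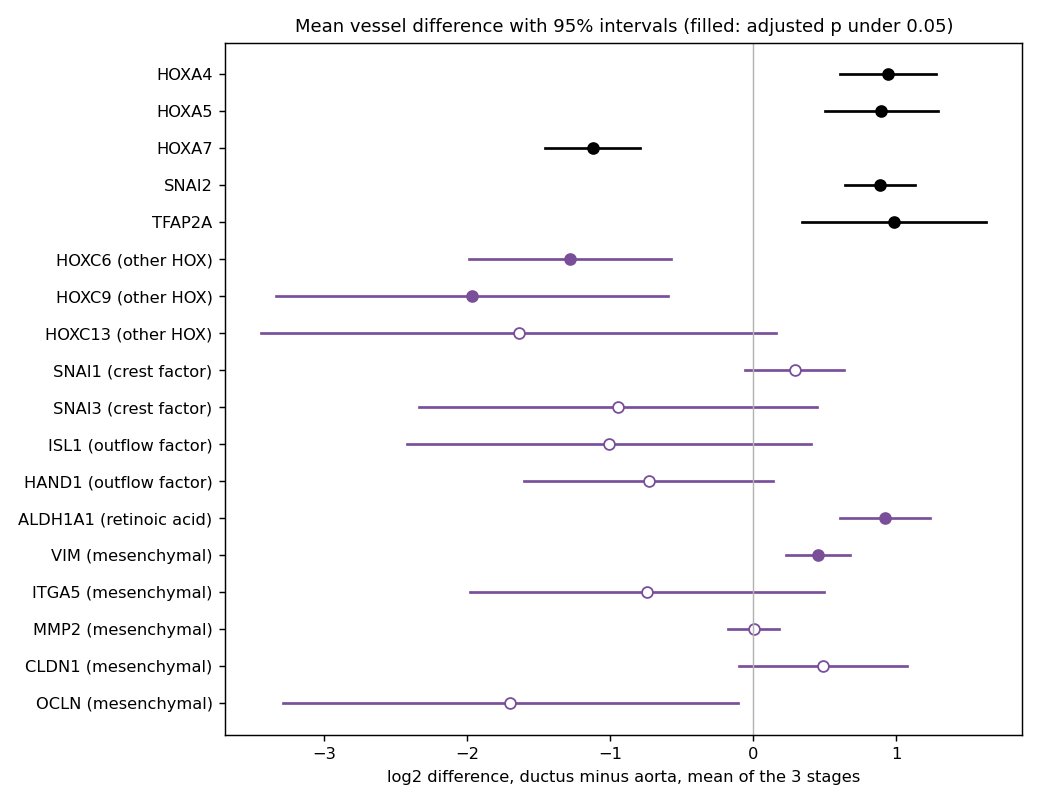
Mean log2 difference of ductus minus aorta over the 3 stages (x axis) with 95% intervals for the brighter probe of the 5 genes (black) and of the listed genes measured by name (purple), filled where the adjusted p was under 0.05. HOXA7, HOXC6 and HOXC9 lie to the left, at −1.12, −1.28 and −1.96, HOXC9 being at background on most arrays, and ALDH1A1 and VIM to the right, at 0.92 and 0.45.

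Smooth muscle could be checked through 1 of 10 listed markers, CNN1, which encodes calponin. On the linear scale relative to the 75th percentile its signal was 42.2 to 51.9 in preterm ductus, against 27.6 to 35.8 in preterm aorta. It was 53.2 to 77.8 in near-term ductus, against 37.7 to 42.8 on the 3 near-term aorta arrays whose spot was not an outlier, and 46.4 to 81.7 in newborn ductus, against 47.6 to 85.2 in newborn aorta. CNN1 was called higher in ductus in the mean of the stages, by 0.43 on the log2 scale. The 5 of 8 fibroblast markers measured, all well above background on every array, summed to 70.2 to 89.2 in preterm ductus, against 46.1 to 67.7 in preterm aorta. The sums were 57.4 to 82.2 in near-term ductus, against 26.6 to 46.1 in near-term aorta, and 49.3 to 77.9 in newborn ductus, against 16.1 to 33.4 in newborn aorta. In the mean of the stages 2 fibroblast markers were higher and 1 lower in ductus, where 14.9% of all tested probes were called. A linear sum follows its brightest markers, and the median marker did not always follow the sum. The median log2 difference of the 5 fibroblast markers was −0.50 in preterm vessels, −0.33 near term, 0.65 in newborns and −0.08 in the mean.

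The 4 of 10 endothelial markers tested, EDN1 among them, summed to 0.542 to 0.678 in preterm ductus, against 0.375 to 0.477 in preterm aorta. Near term the sums were 0.458 to 0.885 in ductus, against 0.363 to 0.620 in aorta, and in newborns 0.698 to 1.60 in ductus, against 0.359 to 0.459 in aorta. In the mean of the stages 2 endothelial markers were higher in ductus, and SELE was never well above background. The median log2 difference of the 4 was −0.24 in preterm vessels, 0.12 near term, 1.10 in newborns and 0.48 in the mean. The 2 of 5 mast cell markers measured summed to 8.04 to 11.5 in preterm ductus, against 4.75 to 8.80 in preterm aorta. They summed to 12.4 to 17.1 in near-term ductus, against 4.30 to 7.89 in near-term aorta. In newborn ductus the sums were 2.11 to 4.05, against 1.49 to 3.02 in newborn aorta. In the mean 1 of the 2 mast cell markers was higher in ductus. The median log2 difference of the 2 was −0.26 in preterm vessels, 0.18 near term, −0.39 in newborns and −0.15 in the mean. The sums of the 3 of 8 neutrophil markers and the 5 of 6 adipocyte markers measured lay lower in newborn ductus, at 0.0187 to 0.196 and 0.994 to 1.499, against 0.223 to 0.842 and 3.69 to 4.35 in newborn aorta. In the mean of the stages 3 of 3 neutrophil markers and 2 of 5 adipocyte markers were lower in ductus. Beside these marker counts, 14.9% of all tested probes were called in that mean, 6.08% higher and 8.82% lower in ductus. For nerve and Schwann cells, cardiac muscle and epithelium no listed marker was measured by name. The part of these cell types in the differences of the 5 genes was not tested.

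The share of spots well above background was 66.2% to 94.4% of an array, and the 75th percentile of the processed signal 322.1 to 1143. The spike-in detection limit was above 1.5 on 2 arrays of preterm ductus, against 3 of preterm aorta, on 2 of near-term ductus, against 3 of near-term aorta, and on 0 of newborn ductus, against 2 of newborn aorta. With 4 arrays a group, their number limits the precision of each value above.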

How the data were processed

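Per the labels, Cy3-labelled cRNA made from total RNA of 24 samples was measured on Agilent arrays, 1 sample to an array. The deposited values are linear intensity per spot, processed by the authors with Agilent Feature Extraction 9.5.3.1, per the file headers, with background subtraction and spatial detrending. The genome build is not given in the sources used here.

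From these, log2 processed intensity was taken minus that of the 75th percentile over an array's non-control spots. Outlier spots were dropped, spots of a probe averaged, and probes kept where at least 4 arrays were well above background. A single limma fit (limma 3.58.1, R 4.3.3) of 6 group means gave 11 comparisons, each adjusted by Benjamini-Hochberg over 13997 probes, two-sided. The script was tested on simulated data. A gene is represented by its brightest probe. Names came from the array and from RefSeq names of ARS-UI_Ramb_v3.0, for 1508 probes.

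Named were the 5 members, each listed gene called between the vessels or otherwise up to 4 with the smallest p, and 3 genes most correlated with each member. Members, lists and tests were chosen with earlier results of these data known. Probe sequences were not used here. Alternatives covered background correction, scaling, filter, blocks, weights, probes and left-out arrays. Whether replicate numbers pair the samples is not known, so no block entered the main fit.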

Additional observations from a re-analysis of the deposited data

Results flagged for a closer look

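Each probe was examined in each of the 6 groups for an array lying far from the other 3, by Dixon's ratio of its gap to the whole range. Of 60 such groups 3 were flagged, and about 3 would be flagged by chance. On the brighter HOXA4 probe, newborn aorta replicate 4 read −0.081, far above the other newborn aorta arrays. On the other HOXA5 probe, near-term ductus replicate 2 read −2.8824, far below the other near-term ductus arrays. On the other SNAI2 probe, preterm ductus replicate 2 read 0.1336, above the other preterm ductus arrays, and still on the ductus side of the aorta range. Without newborn aorta replicate 4 the newborn HOXA4 difference was 1.37 (adjusted p = 0.00127).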

How the results depend on the processing

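In the mean of the stages, the calls of HOXA4, HOXA7 and SNAI2 were kept under all 16 alternatives and all 24 left-out arrays, with ranges of 0.68 to 1.10, −1.16 to −0.87 and 0.77 to 1.03 over the alternatives. HOXA5 was lost with normexp alone (0.43, adjusted p = 0.213). TFAP2A was lost with normexp (0.0997, adjusted p = 0.802), on arrays with a low spike limit (adjusted p = 0.05002), with a trended robust prior (adjusted p = 0.0546) and on the mean of both probes (0.38, adjusted p = 0.371), and turned to −0.2216 on the other probe. The sign of a vessel difference changed in 0 of 115 settings each for HOXA4, HOXA5, HOXA7 and SNAI2, and in 5 of 111 for TFAP2A. The cause was not tested for any of these.

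Of the 5 genes, the count called in preterm vessels was 0 with normexp, with only the groups compared, on arrays with a low spike limit, on the other probe and on the mean of both probes, and 2 with quantile normalisation, array weights or the spike limit as a block. With median centring HOXA4 was called in preterm vessels in place of HOXA7 (adjusted p = 0.164), and near term in place of SNAI2 (adjusted p = 0.0952). Near term the count was 0 with normexp, with only the groups compared and on arrays with a low spike limit, and 3 with array weights. In newborns it was 2 with normexp and on arrays with a low spike limit, and 1 with only the groups compared. It was 3 with both other percentiles, without a filter, with either fixed block and on the other probe. The newborn HOXA5 call was lost in 9 of 17 alternatives. With quantile normalisation the count stayed at 4 because TFAP2A was called in place of HOXA5. In the mean it was 3 with normexp. Between newborn and near-term ductus it was 2 with normexp, 4 with array weights, and 1 with quantile normalisation, both other percentiles, the 12-array filter, a trended robust prior and the mean of both probes. The percentile over unflagged spots was chosen after seeing the data. Array weights gave 2 between near-term and preterm ductus and 1 between newborn and near-term aorta. Leaving out arrays gave 0 to 1 in preterm vessels, 1 to 2 near term, 2 to 3 in newborns, 0 to 2 between newborn and near-term ductus and 0 to 1 between newborn and near-term aorta. The 12-array filter left TFAP2A out, and in the mean of the stages the fit of only the groups compared was not run.

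Over all probes the counts called also moved: 33 to 2146 in preterm vessels against 99, 40 to 942 near term against 161, 371 to 2642 in newborns against 1416 and 937 to 5419 in the mean against 2085. Deviations of samples with the same replicate number did not settle whether they were pairs. Of the 12 correlations 6 were over 0.1 (−0.586 to 0.821), and 5 of 12 were best with their own number. The replicate number was also entered as a fixed term common to the 3 stages, which does not adjust for pairs within a stage. The preterm count was then 0, as HOXA7 had an adjusted p of 0.0503, and the newborn count 3, as HOXA5 had 0.0573. With a random block for each stage and replicate number (correlation 0.178) the counts were 1 and 4, as without it. Dim probes such as those of TFAP2A are limited by signal over background.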
